A study of Homo sapiens with 6 samples.

Results

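The genes described here are 10 imprinted genes: H19, IGF2, CDKN1C, PHLDA2 and KCNQ1OT1 at 11p15.5, PEG10 at 7q21.3, MEST at 7q32.2, PLAGL1 at 6q24, SNRPN at 15q11 and NNAT at 20q11. They were found by Entrez identifier among the 20824 genes listed in any library, and all 10 were listed in every library. They were chosen by name, and selected on estimated counts of the knockdown against scramble comparison seen in earlier work on these data, so their levels, fold changes and calls in that comparison are given as a description. No test is drawn from them, and where a member is said to be called, this only states on which side of the threshold of the fit over all genes it lay.

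All libraries came from A549, a human lung adenocarcinoma cell line. In 3 of the 6 libraries the cells carried a scrambled shRNA, a hairpin RNA meant to match no gene, which the labels treat as the wild type control. In the other 3 the cells carried an shRNA against C19orf12, the gene of a small membrane-associated protein whose loss causes an inherited brain disease with iron deposits. The labels give no treatment or time and do not state how many shRNAs or clones were used. All 3 knockdown titles carry the same index before the replicate number, which may mark a shared shRNA or clone, but the labels do not explain it. Whether the differences are specific to that shRNA or clone was not tested. The labels also do not say whether the replicates were separate cultures, so the spread between replicates may be technical. RNA was selected with oligo-dT beads, so these are levels of polyadenylated RNA.

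An imprinted gene is transcribed mainly from the copy inherited from 1 parent. The parental mark is DNA methylation laid down in the germ line at a control region, and one such region often serves a cluster of genes. At the H19 and IGF2 domain the insulator protein CTCF binds the unmethylated maternal control region, where H19, a non-coding RNA, is transcribed. On the methylated paternal copy CTCF does not bind, and the shared enhancers reach IGF2, which encodes a fetal growth factor. Many genes of this class are high in fetal and placental tissue and low in adult tissue, and relaxed or lost imprinting is common in tumour cells. The files hold total RNA levels per gene and do not separate the parental copies.

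H19 and MEST also host microRNAs, and their mature sequences are shown because both host genes were higher in the knockdown. In the RefSeq table of build GRCh38.p14, the miR-675 hairpin lies in an exon of H19 on the minus strand at chr11:1996759-1996831, and the miR-335 hairpin lies in an intron of MEST on the plus strand at chr7:130496111-130496204. Capitals mark the seed, bases 2 to 8 of each mature RNA.
hsa-miR-675-5p: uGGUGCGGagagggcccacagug
hsa-miR-675-3p: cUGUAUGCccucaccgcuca
hsa-miR-335-5p: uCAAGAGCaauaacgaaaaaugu
hsa-miR-335-3p: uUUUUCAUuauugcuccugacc
The 4 seeds differ from one another. The next line gives the miR-675 hairpin, a stretch of H19 itself, with the mature arms in capitals.
miR-675 hairpin: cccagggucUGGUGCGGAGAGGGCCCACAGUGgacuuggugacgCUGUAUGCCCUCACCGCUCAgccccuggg
Mature microRNAs carry no poly(A) tail, and their levels were not measured in these libraries.

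Since imprints are carried on CpG sites, the sequence before a RefSeq start of MEST and of PLAGL1 is shown with each CG in capitals. These are a pair of paternally expressed genes with higher levels in the knockdown. Each sequence is the 250 bases before that start in build GRCh38.p14, at chr7:130491835-130492084 on the plus strand for MEST and at chr6:144008260-144008509 on the minus strand for PLAGL1. Of the 5 windows of each gene, the one with the most CG was taken, and for MEST, where another window held the same number, the one with the higher GC content.
MEST: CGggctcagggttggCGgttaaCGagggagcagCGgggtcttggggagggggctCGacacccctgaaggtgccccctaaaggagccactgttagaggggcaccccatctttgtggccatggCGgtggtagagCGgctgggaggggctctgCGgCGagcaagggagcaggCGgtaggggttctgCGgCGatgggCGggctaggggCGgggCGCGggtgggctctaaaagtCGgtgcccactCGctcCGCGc
PLAGL1: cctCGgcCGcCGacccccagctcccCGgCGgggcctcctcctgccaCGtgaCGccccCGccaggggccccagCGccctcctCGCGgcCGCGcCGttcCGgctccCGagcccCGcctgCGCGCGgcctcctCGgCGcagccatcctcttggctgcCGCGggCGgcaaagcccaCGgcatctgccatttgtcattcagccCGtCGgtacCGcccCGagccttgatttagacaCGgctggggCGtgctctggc
The MEST window held 20 CG and the PLAGL1 window 32. Over 35116 such windows of 27305 genes the median was 11. Of these windows, 67.6% held fewer than the MEST window and 90.5% fewer than the PLAGL1 window. These ranks are raised by the choice of the window with the most CG, since the shares count every window. The other windows held 20, 16, 11 and 9 CG for MEST and 21, 3, 1 and 1 CG for PLAGL1. In all 93.9% of windows held at least 1 CG. SNRPN had a window with 12 CG. The single H19 window in the table, with 4 CG, was left out because 10 of the 12 GENCODE transcripts of H19 start over 3000 bases downstream of it. For the windows shown this held for 4 of 17 transcripts of MEST and 5 of 27 of PLAGL1. Only 2 MEST and 4 PLAGL1 transcripts start close to the window shown, and 10 start close to the PLAGL1 window with 21 CG. The windows shown thus stand before some starts of each gene. No methylation was measured.

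Totals of estimated counts ran from 10229890 to 10647587 per library, and 3 counts, the limit set by counting, came to 0.3 CPM at most on the TMM scale used throughout. C19orf12 itself stood at 42.6, 41.1 and 63.3 CPM (counts per 1000000, TMM-scaled) in scramble replicates 1 to 3 and at 24.2, 26.3 and 25.2 CPM in the knockdown, or 51.6% of the scramble mean, with a log2 fold change of -0.95 (SE 0.20, edgeR quasi-likelihood adjusted p = 0.015), or -0.73 (SE 0.07) without scramble replicate 3. Scramble replicate 3 differed from the rest: its log2 CPM correlated with scramble replicates 1 and 2 at 0.952 and 0.953 across genes, while those correlated with each other at 0.991. Its shift from the mean of scramble replicates 1 and 2 followed GC content, with genes split by GC into 10 bins of equal size and a median of -1.04 on the log2 scale in the bin of lowest GC and 0.51 in the bin of highest. Values without it are therefore given beside those from all libraries for each member and for the lists of genes related to imprinting or IGF2. The summed level of 8 epithelial markers expected in A549 was 17800 to 20100 CPM in the scramble libraries and 25700 to 26200 CPM in the knockdown. KRT8 and KRT18 were called higher, at log2 fold changes of 1.79 and 1.31, or 2.0 and 1.52 without scramble replicate 3. The summed level of 11 markers of leukocytes, fibroblasts, endothelium, hepatocytes and alveolar cells was 78.3 to 101 CPM and 75.5 to 84.5 CPM, and 5 of the 11 stayed under 3 counts in every library. COL1A1, which encodes a collagen chain made by fibroblasts, was the marker among these called lower, at 41.1 ± 5.82 CPM (SD, n = 3) and 24.4 ± 1.12 CPM, with a log2 fold change of -0.75, or -0.63 without scramble replicate 3. LUM, another fibroblast marker, went the other way, with 0 counts in every scramble library and 5, 6 and 4 in the knockdown, too few to be tested, and COL1A2 and DCN had at most 2 counts in any library. The part of these marker differences in the results was not tested.

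All 10 imprinted genes passed the filter on low counts, CDKN1C only through the scramble group and NNAT with 2 scramble and 3 knockdown libraries at the filter's level. Of the 10, 5 lay past the call threshold of edgeR's fit over all genes, an adjusted p under 0.05. H19, MEST and PLAGL1 were the 3 higher in the knockdown, and IGF2 and PHLDA2 the 2 lower. Among all 14812 genes tested, 11.5% were called, 5.89% higher and 5.64% lower. Leaving out scramble replicate 3, 7 of the 10 were called, 3 higher and 4 lower, where the share over all genes was 49.5%, with 25.7% higher and 23.8% lower. The scramble and knockdown libraries did not overlap in CPM for 8 of the 10, all but KCNQ1OT1 and NNAT, against 37.0% of all genes tested. The median log2 fold change of the 10 was 0.18, beside 0.02 over all genes, and without scramble replicate 3 it was -0.03, beside 0.00. The choice of genes used this same contrast, so these counts describe the list and nothing is read from their distance to the shares over all genes. In bulk RNA, fewer cells transcribing a gene and less RNA per cell cannot be told apart.

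**Figure D1:**
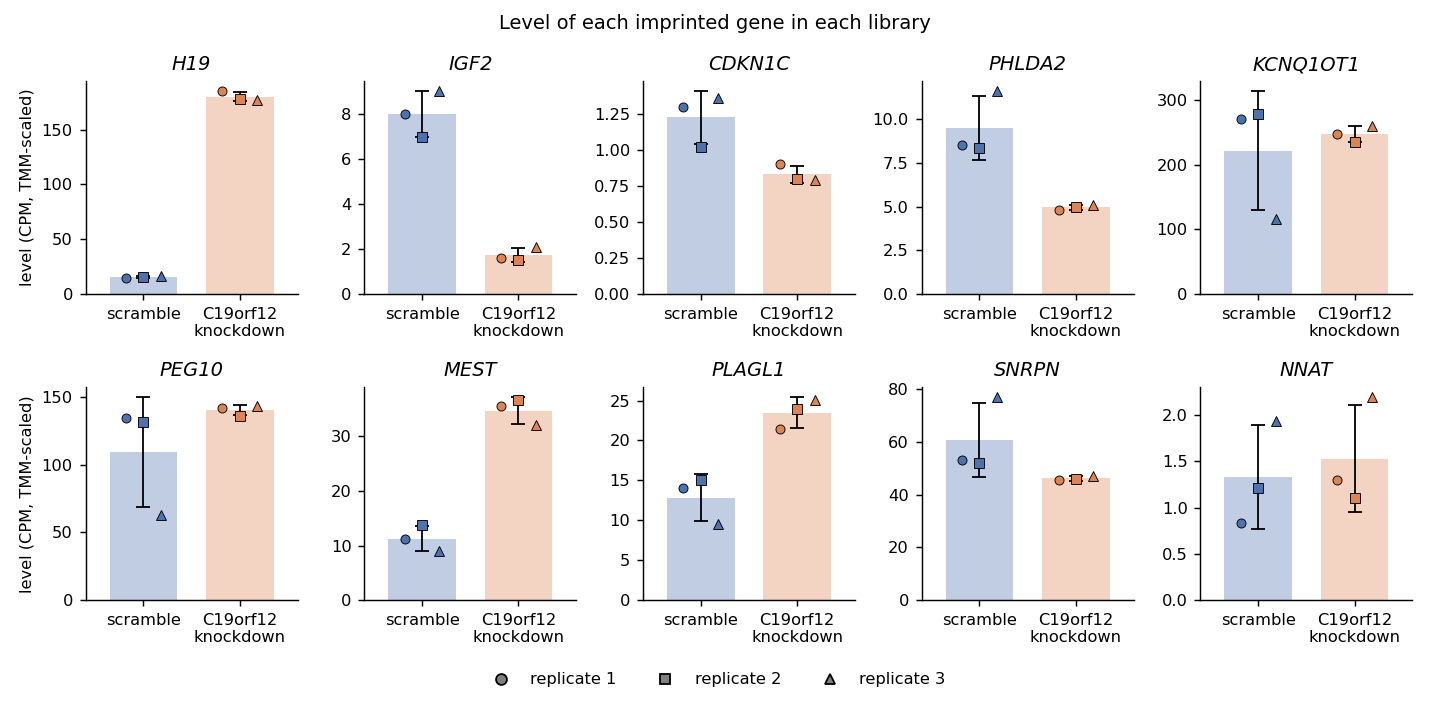
Level of each of the 10 imprinted genes in CPM (TMM-scaled) in each library, with bars at the group mean, error bars of 1 SD (n = 3) and 1 symbol per replicate. The 3 knockdown libraries of H19 lie between 177 and 185 CPM, above the scramble libraries at 14.4 to 16.1, and those of IGF2 lie below every scramble library, while for KCNQ1OT1 and PEG10 scramble replicate 3 lies far below the other two.

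H19 (Entrez 283120, chromosome 11), the maternally expressed non-coding RNA, was the member that differed most. Its level was 14.4, 15.4 and 16.1 CPM in scramble replicates 1 to 3 and 185, 178 and 177 CPM in knockdown replicates 1 to 3. The libraries of each group lay close together and the groups were far apart, including scramble replicate 3, which stood at 108% of the mean of replicates 1 and 2. The estimated counts behind these levels were 155, 166 and 166 in scramble and 1854, 1778 and 1782 in the knockdown. The mean went from 15.3 ± 0.845 CPM (SD, n = 3) to 180 ± 4.72 CPM (SD, n = 3), 11.8-fold higher. The log2 fold change was 3.56 (SE 0.16), and 3.59 (SE 0.07) without scramble replicate 3.

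IGF2 (Entrez 3481, chromosome 11), the paternally expressed growth factor of the same domain, differed in the opposite direction. It stood at 7.99, 6.96 and 9.01 CPM in scramble and at 1.6, 1.5 and 2.09 CPM in the knockdown. All 3 knockdown libraries were below all 3 scramble libraries, on counts of 86, 75 and 93 against 16, 15 and 21. The mean was 7.99 ± 1.02 CPM (SD, n = 3) in scramble and 1.73 ± 0.314 CPM (SD, n = 3) in the knockdown, or 21.6% of the scramble level. The log2 fold change was -2.20 (SE 0.23), and -2.11 (SE 0.23) without scramble replicate 3. IGF2 overlaps its antisense RNA and the read-through gene INS-IGF2, and the sources used here do not say that counting used strand, so reads of these could not be told apart.

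Because the pair shares a control region, the ratio of H19 to IGF2 was taken in each library on the per-length FPKM scale (fragments per kilobase of transcript and 1000000 fragments). It was 3.87, 4.41 and 3.66 in the scramble libraries and 226, 244 and 175 in the knockdown libraries. The lowest knockdown ratio was thus far above the highest scramble ratio. In FPKM itself H19 was at 6.62, 6.84 and 6.59 in scramble and 76.83, 73.32 and 73.64 in the knockdown, and IGF2 at 1.71, 1.55 and 1.80 and at 0.34, 0.30 and 0.42. H19 was above IGF2 in every library of both groups.

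**Figure D2:**
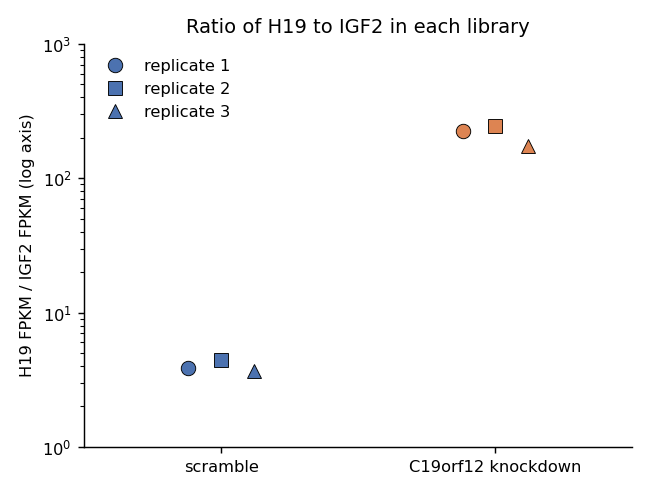
Ratio of H19 to IGF2 in FPKM in each of the 6 libraries, on a log axis, with 1 symbol per replicate. The scramble libraries lie between 3.66 and 4.41 and the knockdown libraries between 175 and 244.

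The centromeric domain of 11p15.5 is governed by KCNQ1OT1 (Entrez 10984), a long unspliced non-coding RNA made from the paternal copy, which silences its neighbours on that copy. It stood at 271, 278 and 116 CPM in scramble and 247, 235 and 260 CPM in the knockdown. Scramble replicate 3 was at 42.2% of the mean of the other scramble libraries, and the groups overlapped. KCNQ1OT1 has a GC content of 43.7%, in a GC bin whose median shift in that library was -0.65, while its own was -1.24. The log2 fold change was 0.16 (SE 0.29) and not called with all libraries. Without scramble replicate 3 it was -0.15 (SE 0.04) and called lower, so both the sign and the call rested on that library. KCNQ1OT1 lies antisense within KCNQ1, and reads of the pair cannot be told apart without strand.

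CDKN1C and PHLDA2 are maternally expressed genes of that domain, and each restrains growth. CDKN1C (Entrez 1028), which encodes the cyclin-dependent kinase inhibitor p57, was near the lower limit of detection with 14, 11 and 14 counts in scramble and 9, 8 and 7.98 counts in the knockdown. In CPM this was 1.30, 1.02 and 1.36 against 0.900, 0.799 and 0.793. The knockdown libraries lay below the scramble libraries, but the log2 fold change of -0.55 (SE 0.31) was not called, nor was that of -0.48 (SE 0.43) without scramble replicate 3.

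PHLDA2 (Entrez 7262), a pleckstrin-homology protein that limits placental growth, stood at 8.55, 8.35 and 11.6 CPM in scramble and 4.80, 4.99 and 5.07 CPM in the knockdown. The groups did not overlap, and scramble replicate 3 was the highest library, at 138% of the mean of the other scramble libraries. The knockdown mean of 4.95 ± 0.137 CPM (SD, n = 3) was 52.1% of the scramble mean of 9.51 ± 1.83 CPM (SD, n = 3). The log2 fold change was -0.94 (SE 0.20), and -0.77 (SE 0.16) without scramble replicate 3. It lay past the threshold in both fits, but not when any 1 of the knockdown libraries was left out, with values of -0.91, -0.95 and -0.95.

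**Figure D3:**
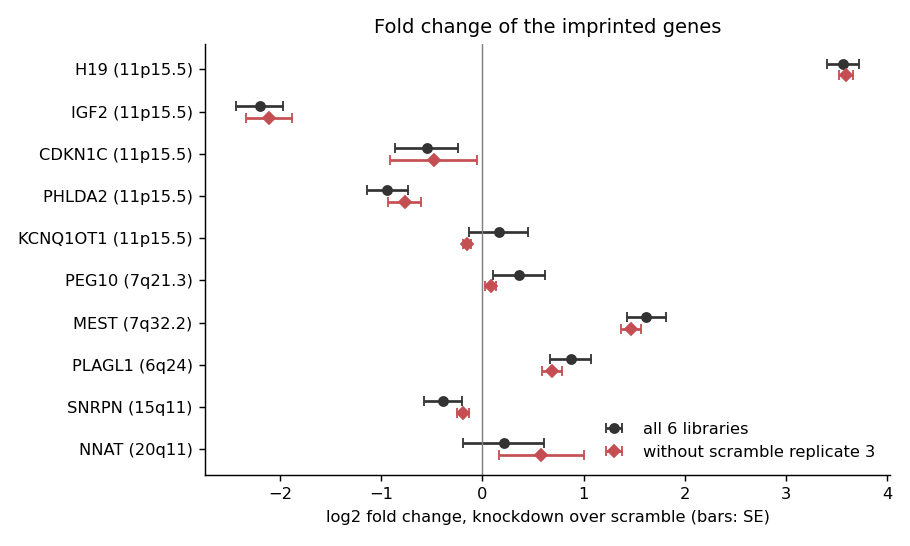
Log2 fold change (knockdown over scramble) of each of the 10 imprinted genes with its SE, from all 6 libraries and without scramble replicate 3. H19 at 3.56 and IGF2 at -2.20 lie farthest from 0 in opposite directions, and KCNQ1OT1 changes sign from 0.16 to -0.15 without scramble replicate 3.

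MEST (Entrez 4232, chromosome 7), a paternally expressed gene encoding a protein of the alpha/beta hydrolase fold, was the second gene with a higher level in the knockdown. Its level was 11.2, 13.7 and 9.01 CPM in scramble and 35.6, 36.6 and 32.0 CPM in the knockdown. The lowest knockdown library was above the highest scramble library, and scramble replicate 3 was the lowest of its group. The means were 11.3 ± 2.37 and 34.7 ± 2.45 CPM (SD, n = 3 each), a 3.07-fold difference. The log2 fold change was 1.62 (SE 0.19), and 1.47 (SE 0.10) without scramble replicate 3.

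PLAGL1 (Entrez 5325, chromosome 6) encodes a zinc finger transcription factor, is expressed from the paternal copy and is linked to transient neonatal diabetes when overexpressed. It stood at 14.1, 15 and 9.49 CPM in scramble and 21.4, 24 and 25.1 CPM in the knockdown. All knockdown libraries were above all scramble libraries, and scramble replicate 3 stood at 65.1% of the mean of the other scramble libraries. PLAGL1 shifted by -0.61 on the log2 scale in that library, in a GC bin whose median shift was 0.05. The means were 12.9 ± 2.97 and 23.5 ± 1.90 CPM (SD, n = 3 each), a 1.82-fold difference, with a log2 fold change of 0.87 (SE 0.20). Without scramble replicate 3 it was 0.69 (SE 0.10) and still called, and it was not called without any 1 of the knockdown libraries, at 0.93, 0.85 and 0.82.

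PEG10 (Entrez 23089, chromosome 7) derives from a retrotransposon, is expressed from the paternal copy and is needed for the placenta. It was at 134, 131 and 62.8 CPM in scramble and 142, 136 and 143 CPM in the knockdown. The knockdown libraries were slightly above scramble replicates 1 and 2, and scramble replicate 3 was at 47.4% of those. PEG10 shifted by -1.08 on the log2 scale in that library, in a GC bin whose median shift was 0.05. Its log2 fold change of 0.36 (SE 0.26) became 0.08 (SE 0.05) without scramble replicate 3, and neither was called.

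SNRPN (Entrez 6638, chromosome 15), a paternally expressed gene of the Prader-Willi region, encodes a component of the spliceosome. Its level was 53.2, 51.9 and 76.8 CPM in scramble and 45.5, 45.8 and 47.2 CPM in the knockdown. The knockdown libraries were below the scramble libraries, and scramble replicate 3 was the highest, at 146% of the other scramble libraries. The log2 fold change of -0.39 (SE 0.19) was not called, while that of -0.19 (SE 0.06) without scramble replicate 3 was called lower. SNURF, which shares transcripts with SNRPN, stood beside it at -0.41 (SE 0.19), and the counting may have split reads between the pair.

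NNAT (Entrez 4826, chromosome 20), a paternally expressed gene for a small membrane proteolipid of the developing brain, was near the lower limit of detection. Its counts were 9, 13 and 20 in scramble and 13, 11 and 22 in the knockdown. The groups overlapped, at 0.836, 1.21 and 1.94 CPM against 1.30, 1.10 and 2.19 CPM. Its log2 fold change was 0.21 (SE 0.40), and 0.58 (SE 0.42) without scramble replicate 3, and neither was called.

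Levels were compared between genes only in FPKM, which is scaled for length. In the scramble libraries the mean levels ran from SNRPN at 46.8 ± 8.52 FPKM (SD, n = 3) through PEG10 at 16.8, PHLDA2 at 10.5, H19 at 6.68, MEST at 4.76, PLAGL1 at 3.8, KCNQ1OT1 at 2.46, IGF2 at 1.69 and NNAT at 1.05 to CDKN1C at 0.687 ± 0.0681 FPKM. Neighbours whose libraries overlapped were PEG10 and PHLDA2, MEST and PLAGL1, PLAGL1 and KCNQ1OT1, KCNQ1OT1 and IGF2, and NNAT and CDKN1C. In the knockdown H19 was the highest of the 10, at 74.6 ± 1.94 FPKM, ahead of SNRPN at 34.4, PEG10 at 20.5, MEST at 13.9, PLAGL1 at 6.42, PHLDA2 at 5.29, KCNQ1OT1 at 2.60, NNAT at 1.18, CDKN1C at 0.460 and IGF2 at 0.353 ± 0.0611 FPKM. No neighbours in that order overlapped. H19 thus went from rank 4 to rank 1 and IGF2 from rank 8 to rank 10.

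The deposited mean transcript length gives a second readout, which shifts when the mix of a gene's isoforms shifts. For PHLDA2, KCNQ1OT1 and SNRPN it was 1 value in every library, at 937, 91671 and 1326 bases. For the other 7 genes the scramble and knockdown libraries overlapped. H19 was at 2264.97 bases in scramble replicate 1 and between 2354.57 and 2362 bases in the other 5 libraries. With all libraries PLAGL1 differed most between group means, at 2.88% longer in the knockdown. Without scramble replicate 3 the difference was 3.01% for PLAGL1, and CDKN1C differed most, at -3.58%. No difference in transcript length between the groups was resolved for the 7 genes whose length can vary.

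Profiles over the 6 libraries were ranked by likeness to H19 and to IGF2 among tested genes with a named symbol. Symbols of LOC, LINC, FAM, KIAA, MIR, open reading frame, antisense, divergent transcript and clone type were left out. Most like H19 were HAL, the first enzyme of histidine breakdown, THEM5, a mitochondrial thioesterase, and ASS1, which makes argininosuccinate in the urea cycle. Likeness was the distance between log2 CPM values with a small count added before the log, each gene centred on its mean. It was 0.22, 0.31 and 0.39 for these genes. HAL had means of 2.01 and 27.2 CPM in scramble and knockdown, ASS1 23.0 and 243 CPM, and THEM5 0.126 CPM, below the 3-count limit, and 3.69 CPM. The added count narrows the difference of a gene this low, so the distance of THEM5 depends on it. Its log2 fold change in the fit was 4.75, beside 3.56 for H19. THEM5 passed the filter on low counts only through the knockdown group. HAL, THEM5 and ASS1 are set beside H19 as a description only. None of these 3 lies on chromosome 11. Nearest to IGF2 were CACNG7, a calcium channel subunit, at a distance of 0.36, PADI3, a peptidylarginine deiminase, at 0.43, and AKNA, a protein with an AT-hook, at 0.47. Their means were 10.2 and 2.06 CPM, 18.1 and 4.42 CPM, and 115 and 29.8 CPM. These distances describe 6 libraries in 2 groups, so most of the likeness is the difference between the groups.

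A list of 41 other genes known as imprinted in human, from the same and other loci, was taken as a set of known imprinted genes, with earlier results of these data known. Of these 35 were listed in at least 1 library, and 25 passed the filter on low counts. A further 10 were listed but did not pass it, and 6 were listed in no library. Whether those 6 could have been counted is not given. By edgeR's quasi-likelihood test with adjustment over all genes, 5 of the 25 were called, 2 higher and 3 lower, beside 11.5% of all genes. The remaining 20 had log2 fold changes between -0.59 and 0.37. The list's median was -0.17, beside 0.02 over all genes. In the fit without scramble replicate 3, 15 of the 25 were called, 2 higher and 13 lower. The share over all genes was 49.5%, with 25.7% higher and 23.8% lower.

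CPA4, a carboxypeptidase gene at the MEST locus, stood at 5.08, 5.82 and 5.09 CPM in scramble and 18.8, 20.6 and 19.9 CPM in the knockdown. No library of one group came near the other group. Its log2 fold change was 1.88 (SE 0.17, edgeR adjusted p = 0.000141), and 1.85 without scramble replicate 3. TFPI2, a protease inhibitor gene near PEG10, stood at 410, 391 and 387 CPM in scramble and 723, 693 and 605 CPM in the knockdown. It rose by 0.77 on the log2 scale (SE 0.14, edgeR adjusted p = 0.00689), and by 0.75 without scramble replicate 3. Its call was lost without knockdown replicate 1 or 2.

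KCNQ1, the potassium channel gene in which KCNQ1OT1 lies, stood at 3.53, 2.60 and 3.97 CPM in scramble and 1.20, 0.999 and 0.894 CPM in the knockdown. The groups did not overlap, and the log2 fold change was -1.69 (SE 0.29, edgeR adjusted p = 0.00514), and -1.56 without scramble replicate 3. The counts behind this were 38, 28 and 41 in scramble and 12, 10 and 9 in the knockdown, near the lower limit of detection. Without strand, reads of KCNQ1 and KCNQ1OT1 cannot be told apart. GRB10, an adaptor protein that dampens insulin receptor signalling, fell by 0.68 on the log2 scale (SE 0.15, edgeR adjusted p = 0.0195), from 175 ± 20.8 to 109 ± 6.34 CPM (SD, n = 3 each). ATP10A, a phospholipid flippase gene next to the Prader-Willi region, fell by 0.71 on the log2 scale (SE 0.19, edgeR adjusted p = 0.0389), from 23.1 ± 4.64 to 14.1 ± 0.968 CPM (SD, n = 3 each). Leaving out scramble replicate 3, the log2 fold changes were -0.58 for GRB10 and -0.54 for ATP10A, and both were called. GRB10 was not called without any 1 of the knockdown libraries, and ATP10A was called in 7 of 13 alternative fits.

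The genes that lay down, keep or read imprints were examined as a second list. Of 19 genes, among them DNMT1, which copies methylation at replication, UHRF1, which recruits it, and the insulator protein CTCF, 17 passed the filter. None was called by edgeR with all libraries or by DESeq2, beside 11.5% of all genes by edgeR. At an unadjusted edgeR p under 0.05 there were 2 of the 17, beside 3763 of all 14812 genes. Their log2 fold changes lay between -0.51 and 0.49, with a median of 0.04 beside 0.02 over all genes. CTCF stood at 72.7 ± 5.68 CPM in scramble and 72.1 ± 3.89 CPM in the knockdown (SD, n = 3 each), and its groups overlapped. DNMT1 stood at 96.0 ± 12.6 and 107 ± 4.19 CPM, and UHRF1 at 42.3 ± 3.27 and 54.0 ± 3.53 CPM. Without scramble replicate 3, 11 of the 17 were called, 5 higher and 6 lower, where 49.5% of all genes were, 25.7% higher and 23.8% lower. Called higher in that fit were DNMT1 at 0.27, UHRF1 at 0.41, TRIM28 at 0.24, EHMT2 at 0.54 and DNMT3B, a methyltransferase that sets new methylation, at 0.60. Called lower were DNMT3A, the other such methyltransferase, at -0.22, the demethylation enzymes TET2 at -0.38 and TET3 at -0.31, and ARID4A at -0.38, ARID4B at -0.41 and ATRX at -0.24.

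The third list held 10 genes for receptors of IGF2 and for proteins that act with IGF2 or H19 RNA, of which 9 passed the filter. IGF2BP2, which encodes a protein that binds IGF2 mRNA, was the 1 gene called of 9, or 11.1%, beside 11.5% of all genes. It stood at 22.9, 20.7 and 19.7 CPM in scramble and 9.90, 10.3 and 9.93 CPM in the knockdown. The groups did not overlap, and the log2 fold change was -1.07 (SE 0.16, edgeR adjusted p = 0.00252), and -1.12 without scramble replicate 3. The 8 genes not called, the receptor genes IGF1R, INSR and IGF2R among them, lay between -0.32 and 0.10, and the list's median was -0.12. IGF2R is also in the list of imprinted genes. LIN28B, which encodes an RNA-binding protein that blocks let-7 maturation, did not pass the filter, with 0, 1 and 0 counts in scramble and 13, 7 and 5 in the knockdown, and was called by DESeq2 and by edgeR without the filter. Leaving out scramble replicate 3, 6 of the 9 were called, all of them lower, where 49.5% of all genes were called and 23.8% called lower.

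**Figure D4:**
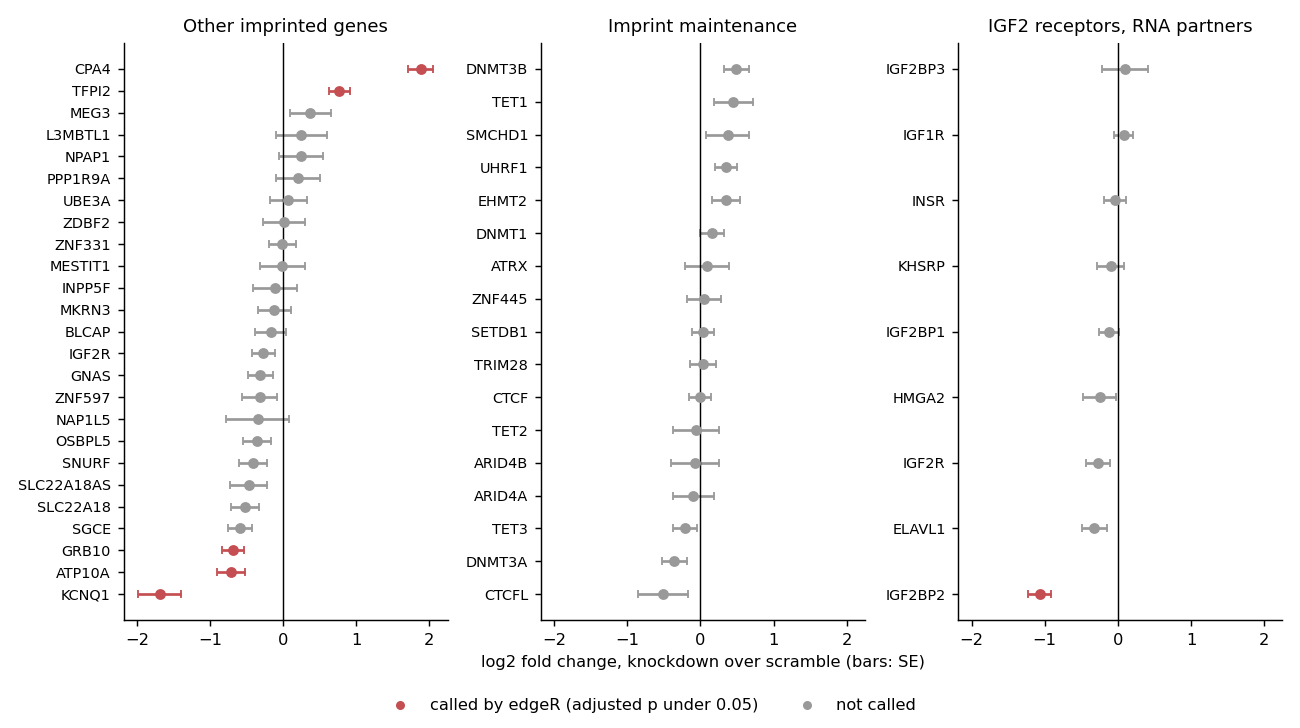
Log2 fold change (knockdown over scramble) with its SE for the tested genes of the 3 lists, with genes called by edgeR in red. Among other imprinted genes CPA4 at 1.88 and KCNQ1 at -1.69 lie farthest out, none of the imprint maintenance genes is called, and IGF2BP2 at -1.07 is the 1 called gene of the third list.

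Genes next to the members were set beside them, 3 tested genes on each side, a choice made after values had been seen. At 11p15.5 the 11 neighbours had log2 fold changes between -1.69 for KCNQ1 and 0.37 for CTSD, which encodes the lysosomal protease cathepsin D, and between -1.56 and 0.56 without scramble replicate 3. Directly beside H19 and IGF2 stood MRPL23-AS1 at 0.03 (SE 0.29) and CD81 at -0.30 (SE 0.19), so the 2 large values of opposite sign lie next to each other in gene order between smaller ones. SLC67A1, also known as SLC22A18, was at -0.52 (SE 0.19) and NAP1L4 at -0.01 (SE 0.15) on either side of PHLDA2.

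**Figure D5:**
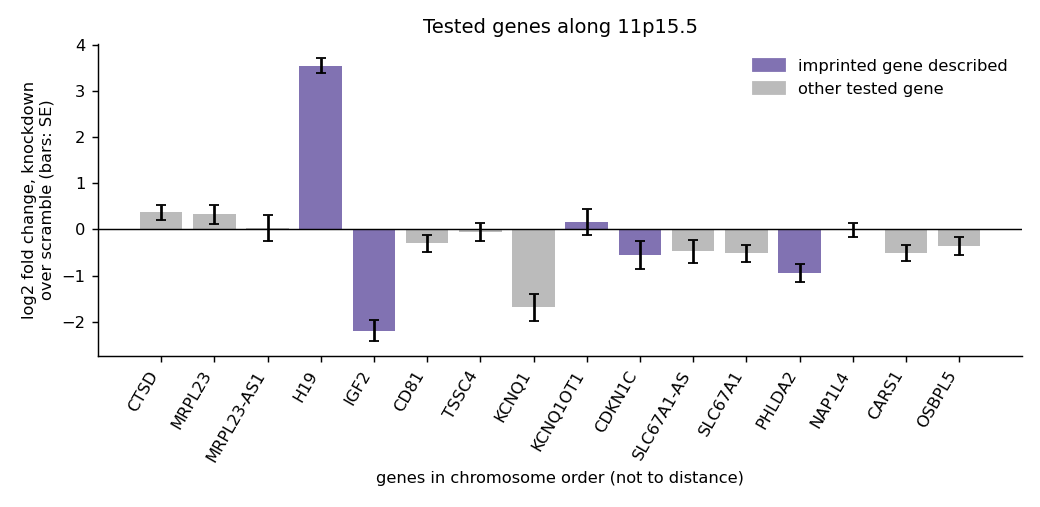
Log2 fold change (knockdown over scramble) with its SE for tested genes along 11p15.5, in chromosome order and not to distance. H19 at 3.56 and IGF2 at -2.20 stand side by side, and the 11 grey neighbours lie between -1.69 and 0.37.

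Around MEST the genes other than CPA4 lay between -0.07 and 0.30, including COPG2, a coat protein gene that overlaps MEST, at -0.07 (SE 0.14) and the antisense RNA MESTIT1 at -0.01 (SE 0.31). Around PLAGL1 all 6 neighbours had values above 0, from 0.19 for SF3B5 to 1.59 (SE 0.27) for STX11, a syntaxin, with PHACTR2 at 1.10 (SE 0.31). Without scramble replicate 3 these 3 were at 0.40, 1.53 and 0.77. Around NNAT all 6 neighbours had values below 0, from -1.04 (SE 0.23) for VSTM2L to -0.04 for LOC100287792, and between -0.94 and 0.08 without scramble replicate 3. Around SNRPN they lay on both sides, from -1.16 (SE 0.66) for GOLGA8DP to 0.34 (SE 0.23) for PWARSN, and between -1.31 and 0.17 without that library. Around PEG10 the neighbours lay between -0.59, for SGCE, and 0.20. SGCE encodes epsilon-sarcoglycan, shares the imprinted promoter region of PEG10 and is paternally expressed. It had means of 70.9 ± 10.4 CPM in scramble and 47.0 ± 4.13 CPM in the knockdown (SD, n = 3 each), and its log2 fold change of -0.59 (SE 0.17) was not called by edgeR with all libraries (adjusted p = 0.0553) and was called at -0.71 without scramble replicate 3.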

How the data were processed

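Polyadenylated RNA of 6 A549 libraries, 3 scramble and 3 C19orf12 knockdown, was measured, with groups and replicate numbers from the labels. The files deposited by the authors give RSEM expected counts per gene, which are estimated counts with fractions. Per the file headers they also give FPKM, scaled by the authors for length and depth, and a mean transcript length in bases, an other kind of value that was deposited beside them. RSEM, BWA and Bowtie2, with build hg19, are named per the submitters' processing notes; roles, versions and the strand setting of the counting: not given in the sources used here.

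No file listed a value of 0, so genes absent from a file were set to 0 counts there. Entrez identifiers were matched to symbols with a GRCh38 annotation (20727 matched, 97 did not). Sequences are from RefSeq tables of GRCh38.p14: 4 of the 10 genes had a promoter window. Rounded counts were fitted on the whole table with edgeR 4.0.16 in R 4.3.3 (filterByExpr with a minimum count of 10 and total of 15, TMM, glmQLFit, glmQLFTest, 2-sided, Benjamini-Hochberg), and a gene was called at an adjusted p under 0.05. Tables and figures were made with pandas 2.3.3 and matplotlib 3.10.9.

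The members and the lists were chosen with earlier results of these data known. Named are the 10 members, called genes of the lists, the 3 nearest profiles to H19 and to IGF2 and C19orf12. Further genes named for background, as neighbours or as uncalled examples were chosen after their values were seen. Replicate pairs differed by more than sampling noise, and each library was entered in the fits as 1 sample. Whether the replicates were separate cultures is not given, so the fits may rest on technical spread. The 13 alternatives covered scaling, filtering, DESeq2 1.42.0, limma-voom (limma 3.58.1), a replicate block and leaving out each library.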

Additional observations from a re-analysis of the deposited data

How the results depend on the processing

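Over the 13 alternative fits, the log2 fold change stayed between 3.50 and 3.59 for H19, between -2.36 and -2.11 for IGF2, between 1.47 and 1.77 for MEST, between -1.03 and -0.77 for PHLDA2 and between 0.69 and 0.98 for PLAGL1, all of them members described without a test. KCNQ1OT1 ranged from -0.15 to 0.35, NNAT from -0.14 to 0.58, PEG10 from 0.08 to 0.53, SNRPN from -0.50 to -0.19 and CDKN1C from -0.68 to -0.48. Among genes that are not members, CPA4 (1.84 to 1.94), KCNQ1 (-1.86 to -1.56) and IGF2BP2 (-1.12 to -1.02) kept their call in all 13, GRB10 (-0.75 to -0.58) in 10, TFPI2 (0.71 to 0.84) in 11 and ATP10A (-0.81 to -0.54) in 7. Leaving out 1 library moved the number of genes called from 1708 to between 729, without knockdown replicate 3, and 7439, without scramble replicate 3; the counts without knockdown replicates 1 and 2 were 766 and 742. It moved the count of other imprinted genes from 5 to between 2 and 15. The count of imprint maintenance genes moved from 0 to between 0 and 11. That of the IGF2 receptors and RNA partners moved from 1 to between 1 and 6. Each was highest without scramble replicate 3. In that fit edgeR's estimated coefficient of variation between libraries was 3% in place of 18.9%. The last list also had 2 genes called with no filter on low counts and 2 with DESeq2, where LIN28B was added. With a replicate block 1654 genes were called, 4 other imprinted genes, without ATP10A, 0 imprint maintenance genes and 1 gene of the third list. Deviations of same-numbered libraries from their group means correlated at -0.024, -0.018 and -0.023, so no pairing by number was seen. The shift of scramble replicate 3 dominates the scramble deviations, so a weak pairing could not have been seen this way. At this depth, CDKN1C, NNAT, IGF2 and KCNQ1 in the knockdown rest on counts of 7.98 to 22. The differences of CDKN1C and NNAT were called in none of the fits, which at such counts does not show that they are absent.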

Other observations

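The 10 members and the other imprinted genes were also grouped by the copy listed as expressed in human. The copy transcribed in A549 was not measured. The genes listed as maternally expressed had 14 tested genes. Of these, 3 were called higher (H19, CPA4 and TFPI2) and 3 lower (KCNQ1, PHLDA2 and ATP10A) by edgeR, beside 5.89% and 5.64% of all genes. The paternally expressed genes had 15 tested genes, of which 2 were called higher (MEST and PLAGL1) and 1 lower (IGF2). In the fit without scramble replicate 3, 9 of the 14 (3 higher, 6 lower) and 8 of the 15 (2 higher, 6 lower) were called. The share over all genes in that fit was 49.5%, with 25.7% higher and 23.8% lower. All 3 paternal genes called with all libraries, and H19 and PHLDA2 of the maternal group, are members chosen on this same contrast. For that reason nothing is read from these counts. The median log2 fold change was -0.34 for the maternal group and 0.01 for the paternal group, and without scramble replicate 3 it was -0.26 and -0.17. The median shift of scramble replicate 3 differed between the groups, at 0.21 and -0.47 on the log2 scale, and its part in these medians was not tested.

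At the 7q32.2 locus MEST is listed as paternally expressed and CPA4 as maternally expressed. Both were higher in the knockdown, at 1.62 and 1.88 on the log2 scale. CEP41 and MESTIT1, which lie between them in gene order, had values of 0.30 and -0.01.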
